A study of Saccharomyces cerevisiae S288C with 32 samples.

Results

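The response of budding yeast to L-azetidine-2-carboxylic acid (AZC) was compared between a zuo1 mutant and wild type, gene by gene, as an interaction. This is the log2 change with AZC in zuo1 minus the log2 change with AZC in wild type, so a negative value means that a gene rose less, or fell more, in zuo1. All 5782 genes that passed a filter on low counts, of 6084 gene records, were tested in the 16 libraries of flowcell 1. These were 4 libraries each of wild type with vehicle, wild type with AZC, zuo1 with vehicle and zuo1 with AZC, out of 32 libraries in the series. All were labelled Saccharomyces cerevisiae S288C, grown in YPD at room temperature from an optical density (OD600) of 0.1 to 0.4. They then received AZC at a final 2 mg/mL or the same volume of sterile water for 45 minutes. The labels give zuo1 as the genotype with no allele, selection marker or number of clones. They number the libraries of each group 1 to 4 as biological replicates, and separate cultures are not stated, so tests measure the spread between these libraries. Since poly(A) RNA was sequenced, a level here is a share of the polyadenylated RNA of the cells, in CPM (counts scaled to a common depth with TMM factors), and fewer cells expressing a gene cannot be told apart from less RNA per cell.

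Zuo1 is a J-domain protein that sits at the exit of the ribosome's peptide tunnel. It pairs with the Hsp70-like protein Ssz1 in the ribosome-associated complex and stimulates the Hsp70s Ssb1 and Ssb2, which bind growing chains. AZC is a proline analog that cells build into new proteins, which then misfold. Misfolded protein activates the transcription factor Hsf1, which drives chaperone genes, and stress of many kinds activates Msn2 and Msn4, which drive genes of energy stores and protection, while genes for ribosome assembly are turned down. The comparison asks which of these responses differ in cells that lack a main cochaperone of the ribosome.

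Depth was 22149489 to 31481854 counts per library, and ribosomal RNA records held 0.554 to 2.44% of them. ZUO1 (YGR285C, chromosome VII, 1061852 to 1063153, build R64) had between 25775 and 33003 counts in libraries of wild type with vehicle and between 14757 and 20188 in those with AZC. In zuo1 it had 0 counts in all 4 vehicle libraries, at least 41585-fold lower against a floor of 3 counts over the group, and 3 counts over the 4 AZC libraries. Its interaction rests on these counts of 0 to 3 and is not read. Of the a-specific genes, STE2 had 15781 to 24411 counts, STE6 8176 to 17302, BAR1 4933 to 8927, ASG7 277 to 1188 and AGA2 140 to 356. MFA1 and MFA2, short a-factor genes, were at 0. Of the alpha-specific genes, STE3 had 17 to 123, MF(ALPHA)1 0 to 13 and MF(ALPHA)2 37 to 137, but SAG1 735 to 1161 and AFB1 156 to 382. The ranges of AGA2 and ASG7 thus overlapped with those of alpha-specific genes. LEU2, URA3 and MET17, biosynthetic genes that the S288C reference genome carries, had 0 counts in all 16 libraries of both genotypes. The other biosynthetic genes of the marker list were present, HIS3 with 460 to 714 counts and LYS2 with 3752 to 7612.

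Most genes that changed with AZC in wild type did not pass the test in zuo1. By edgeR's quasi-likelihood test with Benjamini-Hochberg adjustment at 0.05, AZC changed 3737 genes in wild type (64.6% of those tested; 33.3% higher and 31.3% lower). In zuo1 it changed 160 (2.77%; 2.25% higher and 0.519% lower), and 280 or 308 with the replicate number as a block, over all libraries or within genotype, so a gene said not to pass in zuo1 missed the threshold of the fit without a block. The difference itself passed for 2897 genes (3225 at an unadjusted p under 0.05), 50.1% of those tested. Of these, 1355 (23.4%) had the higher value in zuo1 and 1542 (26.7%) the lower, and 803 (13.9%) differed by at least 2-fold. With the wild-type response taken from the libraries of flowcell 2, 475 did. These shares are the background for every list below. Over all tested genes the median interaction was -0.05, with a 5th percentile of -1.20 and a 95th of 1.23.

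Of the 1542 genes with the lower value, 1372 rose in wild type without passing in zuo1 and 110 rose in both, less in zuo1. Of the 1355 with the higher value, 1332 fell in wild type without passing in zuo1, and 11 fell in both. Responses of opposite sign that passed in both genotypes were seen for 3 genes. The 501 genes that rose at least 2-fold in wild type had a median log2 change of 1.42 there and 0.17 in zuo1. The interaction passed for 475 of them, and 101 also rose in zuo1. The 422 that fell at least 2-fold had medians of -1.47 and -0.07, and 6 of them also fell in zuo1. Across all tested genes the zuo1 response followed the wild-type one with a Pearson r of 0.497 and a slope of 0.165. Without the Hsf1 core and other chaperone lists, over 5749 genes, r was 0.407 and the slope 0.113. The responses share no library, but the interaction subtracts the wild-type response by which the 501 and 422 genes were chosen. That choice favours a smaller median change in zuo1 and an interaction against the wild-type direction. Genes are not independent replicates.

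**Figure D1:**
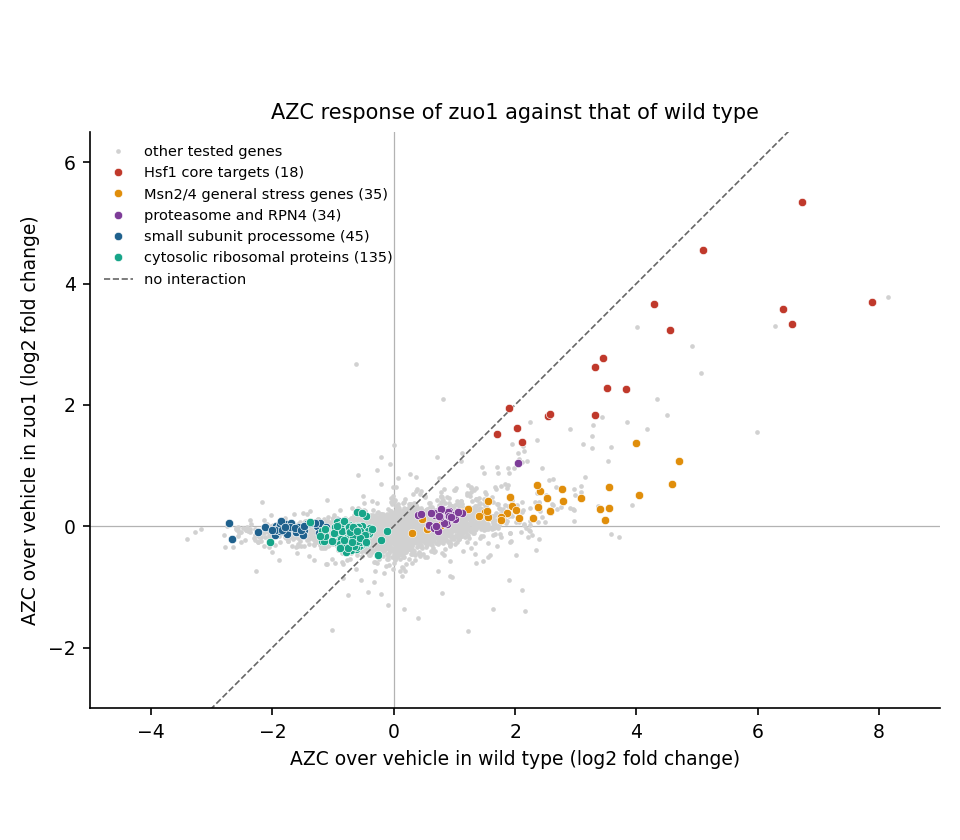
Log2 fold change with AZC in zuo1 (y axis) against that in wild type (x axis), 1 point per tested gene, n = 4 libraries per group, with 5 gene lists in colour and a dashed line of equal response. Hsf1 core targets lie highest in zuo1, with a median of 2.45 against 3.48 in wild type, while Msn2/4 genes, proteasome genes and the ribosome lists lie near 0 on the zuo1 axis; 3 genes lie outside the axes.

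SSA4 (YER103W, chromosome V, 364589 to 366517), which encodes a stress-inducible cytosolic Hsp70, had the lowest interaction among genes with at least 10 CPM on average that overlap no other. SSA4 stood at 70.4, 39.4, 61.0 and 74.4 CPM in the wild-type vehicle libraries and at 19244, 18563, 17628 and 13717 under AZC, against 54.4, 48.1, 52.3 and 52.7 in zuo1 vehicle and 628, 578, 738 and 910.2 in zuo1 under AZC. The groups did not overlap under AZC, and the vehicle ranges of both genotypes did. SSA4 rose by 8.14 ± 0.24 in wild type and by 3.78 ± 0.20 in zuo1, an interaction of -4.36 ± 0.26 (edgeR adjusted p = 5.58e-10). HSP42 (YDR171W, chromosome IV, 806621 to 807748), a small heat shock protein that gathers misfolded proteins into deposits, came next. HSP42 had 24.6, 26.2, 29.0 and 30.5 CPM in wild type with vehicle, 6812, 6651, 7111 and 5474 in wild type with AZC, 37.9, 42.5, 50.4 and 53.6 in zuo1 with vehicle and 521, 512, 656 and 706 in zuo1 with AZC. Every zuo1 vehicle library was above every wild-type one, and every zuo1 AZC library below every wild-type AZC one (interaction -4.18 ± 0.20, adjusted p = 7.06e-11). The rest of the 12 lowest were TSL1 (-3.89), RTC3 (-3.63), RIE1 (-3.57), UBI4 (-3.52), SOL4 (-3.38), GSY1 (-3.25), HSP78 (-3.23), SSA3 (-3.04), ROQ1 (-2.98) and PNC1 (-2.90). They include genes of trehalose, glycogen and ubiquitin as well as chaperones.

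At the other end stood genes that fell in wild type and did not pass in zuo1. RFU1 (YLR073C, chromosome XII, 281019 to 281621), whose product inhibits the deubiquitinase Doa4, had the highest value. RFU1 stood at 37.1, 34.1, 37.5 and 39.8 CPM in the wild-type vehicle libraries and at 2.27, 3.29, 3.00 and 5.42 under AZC, against 27.9, 23.5, 24.0 and 28.4 in zuo1 vehicle and 22.9, 26.8, 19.9 and 19.7 in zuo1 under AZC. The wild-type AZC libraries were the lowest by far, and the zuo1 libraries of both treatments overlapped, all below wild-type vehicle (interaction 3.19 ± 0.24, adjusted p = 8.58e-09). DHR2 (YKL078W, chromosome XI, 288845 to 291052) encodes an RNA helicase of ribosomal RNA processing. In wild type DHR2 was at 136, 133, 139 and 131 CPM before and 16.3, 22.7, 18.8 and 24.0 CPM after AZC, and in zuo1 at 103, 119, 121 and 114 before and 125, 116, 123 and 110.0 after. The zuo1 ranges before and after AZC overlapped, below wild-type vehicle and far above wild-type AZC (interaction 2.77 ± 0.13, edgeR adjusted p = 7.91e-11). The other high genes were GFD2 (3.18), YGR079W (2.65), the uridine permease gene FUI1 (2.58), the glucose transporter gene HXT2 (2.56), the malic enzyme gene MAE1 (2.56) and 5 genes of ribosome assembly, FAF1 (2.51), BMT6 (2.48), NOG1 (2.45), UTP23 (2.45) and IPI3 (2.44).

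**Figure D2:**
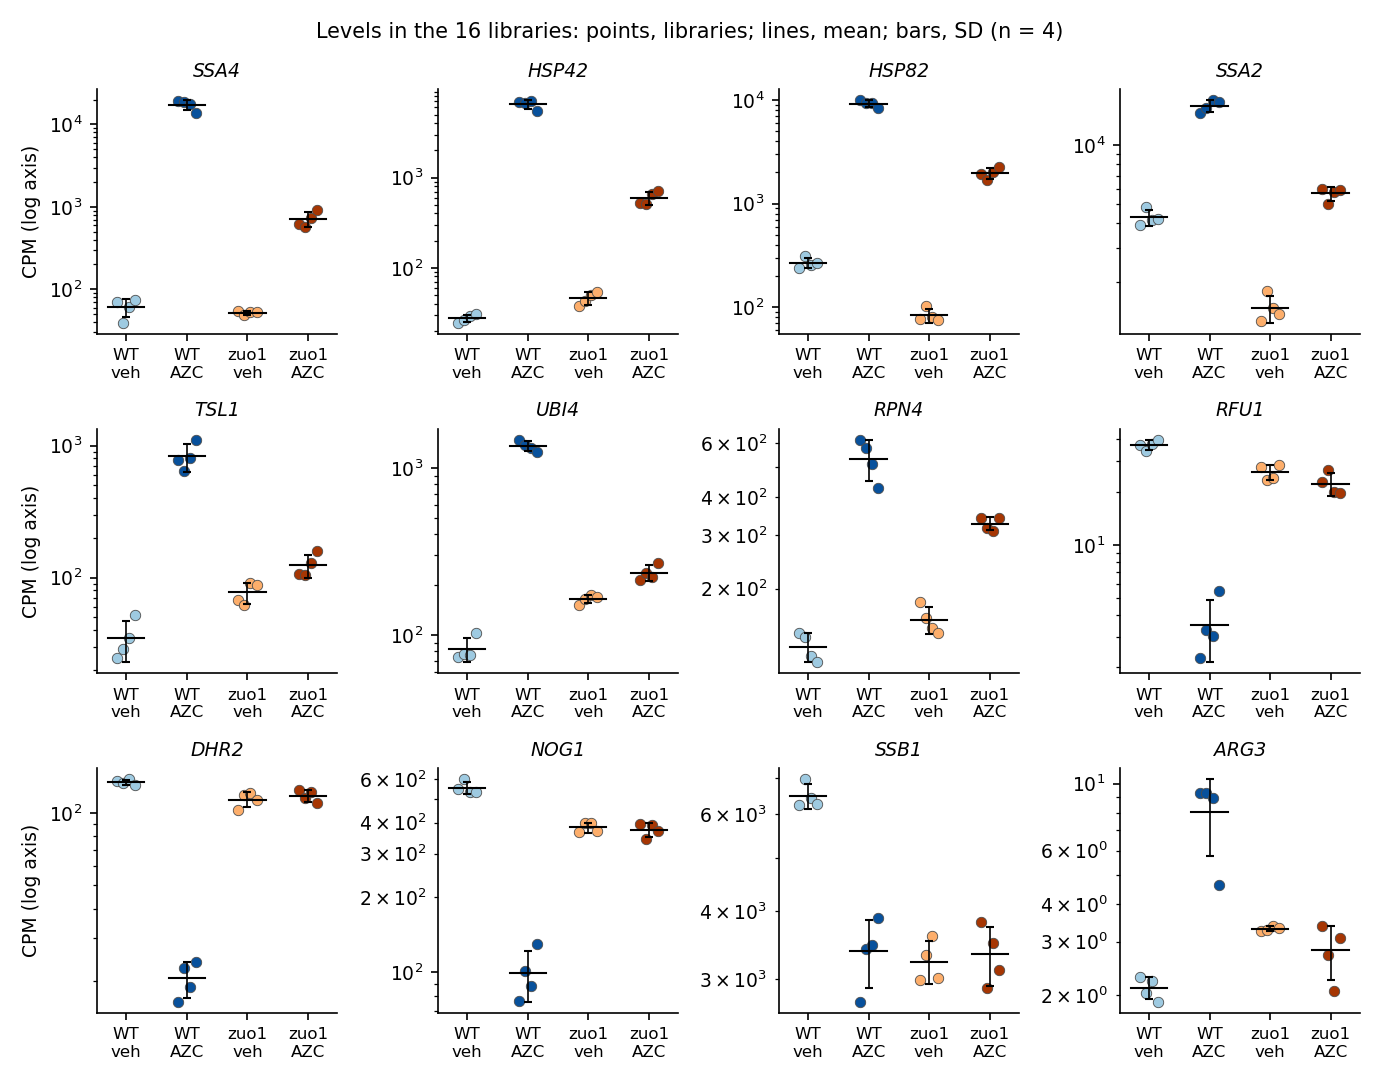
Level of 12 genes in CPM (log axis) in each of the 16 libraries, by genotype and treatment, with the mean and SD of 4 libraries. In wild type SSA4, HSP42, TSL1 and UBI4 rise and RFU1, DHR2 and NOG1 fall by far more than in zuo1, whereas HSP82 and SSA2 lie lower in zuo1 at both treatments and rise in both genotypes.

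The promoters of the genes at both ends are shown to set known binding motifs beside the responses. Each is 250 bases before and 50 after the start codon, read from the RefSeq R64 genome, since the annotation's yeast genes begin at the start codon. Motifs are in capitals on either strand. They are the heat shock element bound by Hsf1 (3 alternating units GAA and TTC with 2 bases between them), the stress response element bound by Msn2 and Msn4 (AGGGG), and the core of the polymerase A and C motif common in ribosome assembly genes (GATGAG). The first is SSA4, with 1 AGGGG, and the second HSP42, with 2 overlapping heat shock elements and 3 AGGGG. TSL1 has 3 AGGGG and 1 GATGAG, the latter on the reverse strand inside the coding sequence. RPN4, the activator of proteasome genes, has 1 heat shock element. SSA2, added after its value was seen as a gene with an interaction of 0.05, has 1 as well. RFU1 and GFD2 have 1 GATGAG each, and DHR2 has 3 that overlap by 1 base. A motif that is not in capitals is not in that window in this form, which says nothing of the factor.
SSA4, chrV:364339-364638, forward strand: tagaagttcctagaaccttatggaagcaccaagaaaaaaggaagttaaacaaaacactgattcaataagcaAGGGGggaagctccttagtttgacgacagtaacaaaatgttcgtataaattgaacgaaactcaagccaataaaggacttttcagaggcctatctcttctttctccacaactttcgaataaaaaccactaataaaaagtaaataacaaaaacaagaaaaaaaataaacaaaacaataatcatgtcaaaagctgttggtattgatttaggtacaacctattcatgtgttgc
HSP42, chrIV:806371-806670, forward strand: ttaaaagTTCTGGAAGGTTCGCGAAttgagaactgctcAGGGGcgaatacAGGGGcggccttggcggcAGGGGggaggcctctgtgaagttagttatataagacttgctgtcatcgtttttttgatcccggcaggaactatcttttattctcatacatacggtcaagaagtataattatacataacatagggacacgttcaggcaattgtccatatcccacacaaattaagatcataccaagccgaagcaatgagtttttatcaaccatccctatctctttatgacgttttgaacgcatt
TSL1, chrXIII:70374-70673, forward strand: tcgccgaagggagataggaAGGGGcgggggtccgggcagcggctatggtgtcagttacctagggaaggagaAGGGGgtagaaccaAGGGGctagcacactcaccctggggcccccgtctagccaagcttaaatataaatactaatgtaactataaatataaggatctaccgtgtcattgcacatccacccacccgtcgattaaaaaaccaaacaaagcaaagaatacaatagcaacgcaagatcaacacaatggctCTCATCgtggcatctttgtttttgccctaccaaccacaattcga
RPN4, chrIV:416659-416958, reverse strand: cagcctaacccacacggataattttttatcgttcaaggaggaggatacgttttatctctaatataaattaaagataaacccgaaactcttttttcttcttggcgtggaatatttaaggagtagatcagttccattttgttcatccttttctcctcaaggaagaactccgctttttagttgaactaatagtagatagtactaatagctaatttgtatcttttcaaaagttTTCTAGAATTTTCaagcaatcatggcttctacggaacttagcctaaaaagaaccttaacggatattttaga
SSA2, chrXII:97436-97735, reverse strand: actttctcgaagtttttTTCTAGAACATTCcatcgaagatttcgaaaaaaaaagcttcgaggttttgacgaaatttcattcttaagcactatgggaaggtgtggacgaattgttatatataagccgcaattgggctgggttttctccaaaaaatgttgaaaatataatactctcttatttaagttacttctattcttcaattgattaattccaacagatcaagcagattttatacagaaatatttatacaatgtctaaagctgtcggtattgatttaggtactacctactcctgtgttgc
RFU1, chrXII:281572-281871, reverse strand: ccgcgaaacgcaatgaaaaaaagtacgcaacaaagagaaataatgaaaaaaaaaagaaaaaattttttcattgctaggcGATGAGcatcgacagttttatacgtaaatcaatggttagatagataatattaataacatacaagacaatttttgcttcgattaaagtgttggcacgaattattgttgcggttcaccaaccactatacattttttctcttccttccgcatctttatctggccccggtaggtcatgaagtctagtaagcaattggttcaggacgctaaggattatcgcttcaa
GFD2, chrIII:58776-59075, forward strand: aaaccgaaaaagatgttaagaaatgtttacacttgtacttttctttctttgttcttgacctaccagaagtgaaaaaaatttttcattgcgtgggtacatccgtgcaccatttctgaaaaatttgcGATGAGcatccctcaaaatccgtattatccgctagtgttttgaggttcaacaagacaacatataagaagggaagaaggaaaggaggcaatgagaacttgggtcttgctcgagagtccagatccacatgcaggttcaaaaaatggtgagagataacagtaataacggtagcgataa
DHR2, chrXI:288595-288894, forward strand: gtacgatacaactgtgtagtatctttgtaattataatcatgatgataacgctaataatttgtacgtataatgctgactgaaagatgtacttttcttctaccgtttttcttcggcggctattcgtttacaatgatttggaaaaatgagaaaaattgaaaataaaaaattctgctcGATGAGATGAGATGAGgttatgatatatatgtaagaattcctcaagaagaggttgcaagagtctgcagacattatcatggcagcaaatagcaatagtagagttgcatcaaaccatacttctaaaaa

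Over all promoters of this length, motifs and interaction are given as a description of the letters alone. Of 5960 promoters, 0.789% held the heat shock element, 21.6% AGGGG, 20.2% GATGAG, 4.68% GTGGCAA (the core of the motif bound by Rpn4) and 2.94% CACGTG (the core bound by Pho4 and Cbf1). Tested genes with AGGGG had a median interaction of -0.28 and 40.7% were called lower, against 23.0% of genes without it. With 2 or more AGGGG, 166 genes had a median of -0.62 and 54.8% lower. Genes with GATGAG had a median of 0.23 and 44.3% were called higher, against 18.5% without it. Of 270 genes with the Rpn4 core 135 were lower, with a median of -0.34. The 45 tested genes with a heat shock element had a median of -0.33, with 23 lower and 7 higher, and median AZC responses of 0.46 in wild type and 0.10 in zuo1. Genes with CACGTG had a median of -0.02, close to -0.06 without it. Among the lists, AGGGG was in 26 of 35 Msn2/4 genes, GATGAG in 41 of 45 small subunit processome genes and in 50 of 53 genes of 60S assembly, and GTGGCAA in 32 of 34 proteasome genes.

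Chaperone genes under the heat shock factor Hsf1 rose in both genotypes, most of them by less in zuo1, and many stood at lower levels there before AZC. All 18 Hsf1 core targets rose in both genotypes, with medians of 3.48 in wild type and 2.45 in zuo1. The interaction was lower for 16 of them and higher for 0, with a median of -0.73. With the wild-type response of flowcell 2 it was lower for 9, with a median of -0.42. In vehicle 13 of the 18 were already lower in zuo1 than in wild type and 2 higher, against 29.1% lower and 30.1% higher (59.3% in all) among all tested genes. Under AZC 17 were lower, against 35.4% lower and 34.0% higher (69.3% in all). The members ran from HSP42 (-4.18), HSP78 (-3.23), a mitochondrial disaggregase, and HSP104 (-2.83), the cytosolic disaggregase, through FES1 (-1.57), an Hsp70 exchange factor, BTN2 (-1.38), a sequestrase, and MDJ1 (-1.23), to STI1 (-0.69), SIS1 (-0.67), SSA1 (-0.62) and YDJ1 (-0.41), an Hsp70 and its cochaperones. The call of YDJ1 was lost under 7 of 28 alternatives, of which 6 left out 1 library of any of the 4 groups (down to -0.295 without zuo1 vehicle replicate 2). With the wild type of flowcell 2 the calls of YDJ1 (-0.275), STI1 (-0.33), SIS1 (-0.26) and SSA1 (-0.40) were lost.

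HSP82 (YPL240C, chromosome XVI, 96496 to 98625) encodes the inducible Hsp90 and has a near-identical copy, HSC82, so reads shared by both were divided by estimation. HSP82 stood at 241, 310.4, 258 and 267 CPM in the wild-type vehicle libraries and at 9967, 9397, 9266 and 8303 under AZC, against 76.5, 103, 80.1 and 75.8 in zuo1 vehicle and 1925, 1708, 2007 and 2264 in zuo1 under AZC. The zuo1 libraries lay below the wild-type ones in vehicle and under AZC without overlap, and the rise was 5.10 ± 0.14 in wild type and 4.56 ± 0.14 in zuo1. The interaction of -0.54 ± 0.17 (adjusted p = 0.0133) lost its call without zuo1 vehicle replicate 2 (-0.375, adjusted p = 0.068) or without zuo1 AZC replicate 2 (-0.429, adjusted p = 0.0534), with all 32 libraries in the fit, and against the wild type of flowcell 2. SSA2 (YLL024C, chromosome XII, 95566 to 97485), a constitutive Hsp70 gene with the near-identical copy SSA1, is named as the most alike in both genotypes. SSA2 had 3926, 4872, 4157 and 4205 CPM in wild type with vehicle, 14613, 15606, 17043 and 16604 in wild type with AZC, 1262, 1804, 1472 and 1374 in zuo1 with vehicle and 6022, 5025, 5775 and 5948 in zuo1 with AZC. Here too the genotypes did not overlap at either treatment. SSA2 rose by 1.90 ± 0.12 in wild type and 1.95 ± 0.12 in zuo1, and the interaction was 0.05 with a 95% interval of -0.30 to 0.40. For HSC82 it was -0.19 (-0.57 to 0.18). A p that misses the threshold does not show equal responses, so genes were also ranked by their intervals. Of those that changed at least 2-fold in wild type, SSA2, HSC82, YDJ1, KAR2, CTH1, ECL1, INO2, PEX25, MSA1 and LCB5 were the 10 whose intervals allowed the least difference. They were not all alike in response, since YDJ1, KAR2, CTH1, PEX25, MSA1 and LCB5 still passed with the lower value in zuo1 (-0.53 for KAR2 and -0.68 for LCB5). INO2 turned from -0.42 to 0.35 with the wild type of flowcell 2.

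Of 15 other heat-inducible chaperones 11 had the lower value and 1 the higher, with medians of 2.04 in wild type and 0.66 in zuo1. In wild type 14 rose and 1 fell, and in zuo1 7 rose and 8 did not pass. SSA3 (-3.04), an inducible Hsp70, rose by 3.37 in wild type and stood at 0.33 in zuo1, where it did not pass. SSE2 (-2.66), an Hsp70 exchange factor, rose in both (4.50 and 1.84). Of 9 mitochondrial matrix chaperones and protease genes 6 had the lower value, among them HSP10 (-1.03), and 6 were lower in zuo1 under AZC. Genes of the ER unfolded protein response had 5 of 15 lower and 1 higher, with a median of -0.18. ERO1 (-1.78), which makes disulfide bonds, DER1 (-1.08) and HRD1 (-0.88) of ER degradation were the members with the largest values. The transcript of HAC1, the activator of that pathway, did not pass at 0.09, and its activation by splicing is not seen in these counts.

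Genes of Zuo1's partners fell with AZC in wild type and were lower in zuo1 before AZC. SSB1 (YDL229W, chromosome IV, 44065 to 45906) encodes one of the pair of ribosome-bound Hsp70s. SSB1 stood at 6247, 6953, 6414 and 6268 CPM in the wild-type vehicle libraries and at 2731, 3411, 3462 and 3886 under AZC, against 2988, 3318, 3602 and 3013 in zuo1 vehicle and 3822, 2890, 3492 and 3118 in zuo1 under AZC. The zuo1 vehicle libraries overlapped those of wild type under AZC, and the AZC response did not pass in zuo1 (0.04 against -0.94 in wild type, interaction 0.98 ± 0.17, adjusted p = 8.74e-05). SSB2, its near-identical copy, had 0.91 and SSZ1, the partner in the ribosome-associated complex, 0.64. The nascent chain-binding genes EGD1, EGD2 and BTT1 did not pass.

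General stress genes rose in wild type, and few passed in zuo1. Of 35 Msn2/4 genes 34 rose in wild type and 4 in zuo1, with medians of 2.06 in wild type and 0.28 in zuo1, and 31 had the lower interaction (median -1.75). Of 18 enzymes of trehalose and glycogen, the sugar stores of yeast, 15 rose in wild type and 0 in zuo1. The interaction was lower for 15 and higher for 2. TSL1 (YML100W, chromosome XIII, 70624 to 73920), a subunit of trehalose synthase, is in both lists. TSL1 stood at 24.5, 28.6, 34.8 and 51.9 CPM in the wild-type vehicle libraries and at 785, 638, 801 and 1111 under AZC, against 67.8, 62.4, 90.5 and 88.2 in zuo1 vehicle and 107, 105, 129.7 and 158 in zuo1 under AZC. Every zuo1 vehicle library was above every wild-type one (log2 difference 1.15), and every zuo1 AZC library was above zuo1 vehicle and below wild-type AZC. The rise in zuo1 of 0.69 ± 0.22 did not pass, and the interaction was -3.89 ± 0.32 (edgeR adjusted p = 3.33e-08). GSY1 (YFR015C, chromosome VI, 174265 to 176391) encodes a glycogen synthase. In wild type GSY1 was at 12.2, 11.9, 11.5 and 11.8 CPM before and 142, 129, 143 and 144 CPM after AZC, and in zuo1 at 9.66, 10.6, 14.8 and 12.6 before and 13.8, 12.4, 16.2 and 16.5 after. The vehicle levels of the genotypes overlapped, and the zuo1 ranges before and after AZC overlapped as well (interaction -3.25 ± 0.16, adjusted p = 1.06e-10).

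Msn2/4 genes did not all start from the same place. In vehicle 15 of 35 were higher in zuo1 than in wild type and 4 lower, and under AZC 28 were lower and 1 higher. RTC3 was higher in zuo1 vehicle by 1.95 and lower under AZC by -1.68. STF2 (YGR008C, chromosome VII, 508110 to 508364), named after its value was seen, encodes a protein tied to the mitochondrial ATP synthase and to survival of drying. STF2 had 7.97, 4.49, 4.70 and 6.09 CPM in wild type with vehicle, 26.6, 28.2, 19.9 and 34.7 in wild type with AZC, 19.3, 25.5, 19.0 and 23.8 in zuo1 with vehicle and 16.98, 27.0, 14.3 and 24.8 in zuo1 with AZC. The zuo1 libraries overlapped with wild type under AZC whichever treatment they had (interaction -2.32 ± 0.31). HSP12, a membrane-protecting small protein, had -1.83 ± 0.79 and did not pass (adjusted p = 0.0698). It was higher in zuo1 in vehicle by 3.36 and under AZC by 1.53, and passed under 6 of 28 alternatives, without wild-type vehicle replicate 4 (-2.74, adjusted p = 0.00146) among them. GPD1 of glycerol synthesis (-2.29) was named after its value was seen. So were TMA10 and CYC7, with means under 10 CPM over the 16 libraries. TMA10 stood at 0.250, 0.429, 0.182 and 0.0974 CPM in the wild-type vehicle libraries and at 17.5, 14.1, 12.9 and 18.8 under AZC, against 1.04, 0.749, 1.23 and 1.09 in zuo1 vehicle and 2.12, 2.71, 2.98 and 4.22 in zuo1 under AZC. It rose in both genotypes (5.98 ± 0.31 and 1.54 ± 0.25), from a higher level in zuo1 (interaction -4.44 ± 0.42). CYC7, a stress form of cytochrome c, had -3.88 ± 0.39.

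**Figure D3:**
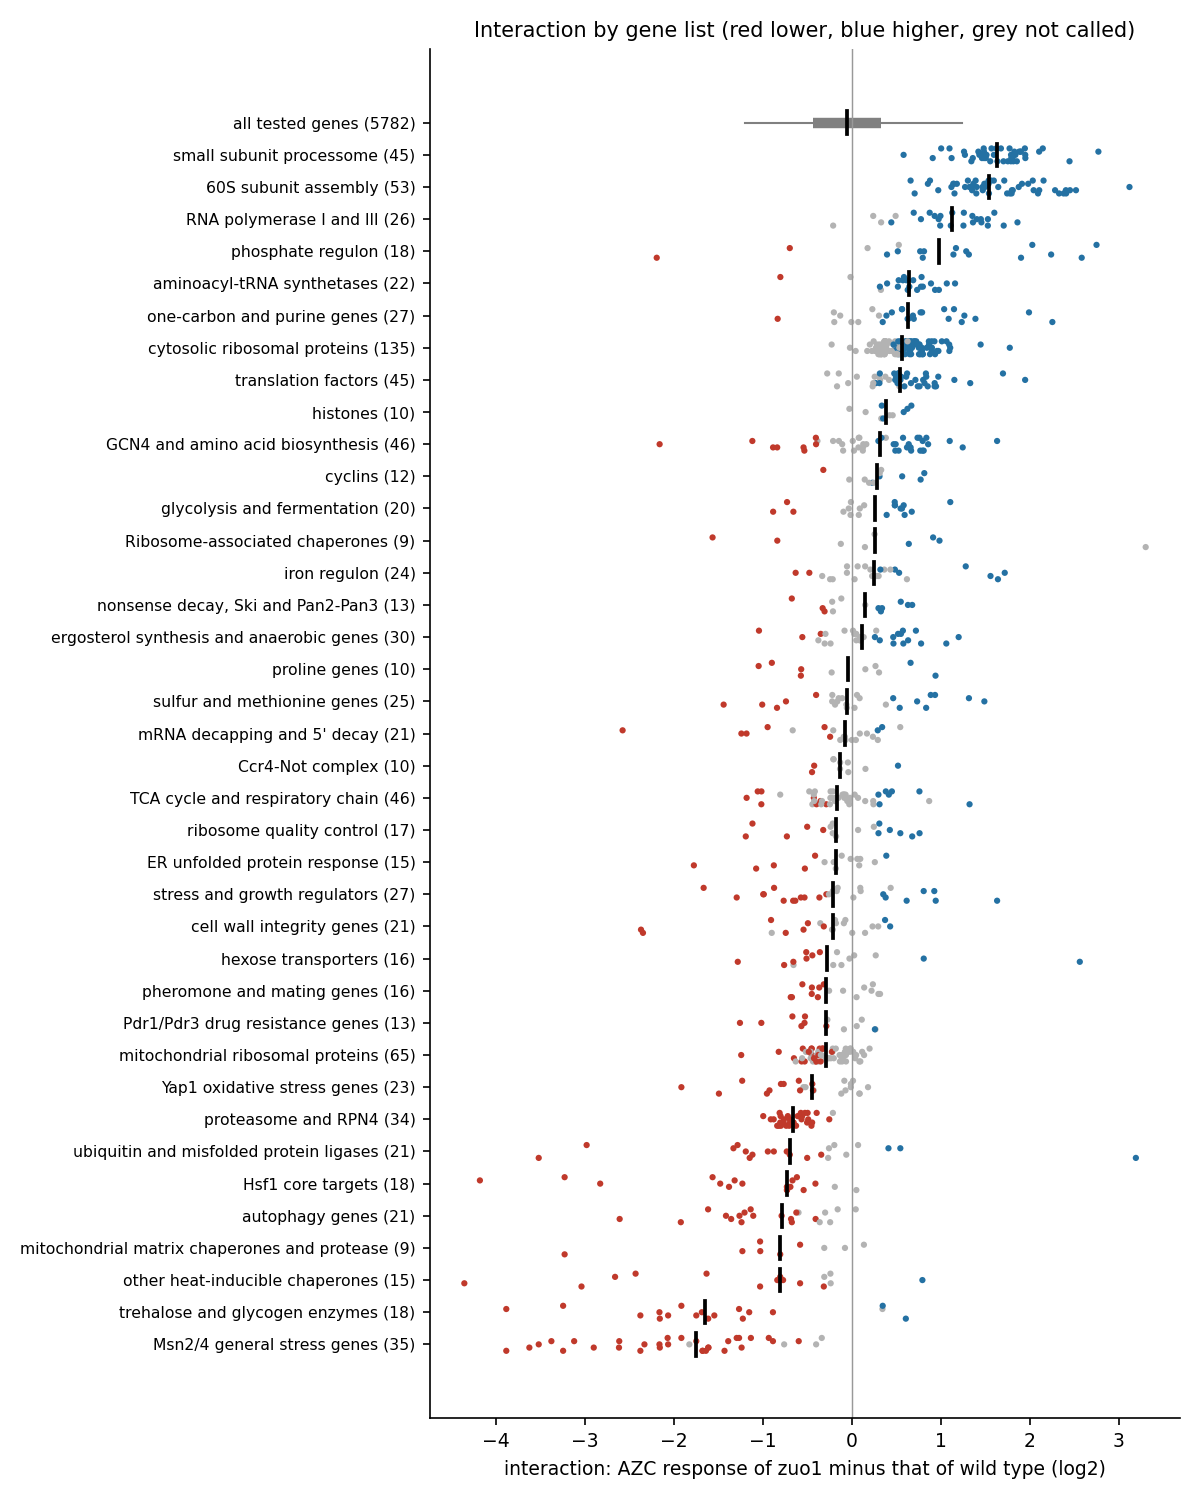
Interaction of every tested member of 38 gene lists (points; red lower, blue higher, grey not called), with list medians as black bars, sorted by median, and the 5th to 95th percentile (line) and quartiles (thick line) of all tested genes at the top. Ribosome assembly lists lie at the high end with medians of 1.64 and 1.54, and Msn2/4 genes at the low end with -1.75; the grey point at 3.30 among ribosome-associated chaperones is ZUO1 itself.

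Proteasome genes rose in wild type by small amounts, and few passed in zuo1. All 34 proteasome genes with RPN4 rose in wild type and 2 in zuo1, with medians of 0.75 in wild type and 0.18 in zuo1. The interaction was lower for 33 of 34 and did not pass for RPT1 (-0.21). RPN4 (YDL020C, chromosome IV, 415113 to 416708) encodes the short-lived activator of these genes. RPN4 stood at 143, 139, 120.1 and 115 CPM in the wild-type vehicle libraries and at 616, 577, 512 and 427 under AZC, against 181, 159.7, 148 and 144 in zuo1 vehicle and 341, 317, 309 and 340.1 in zuo1 under AZC. It rose in both genotypes without overlap between vehicle and AZC, to a lower level in zuo1 (interaction -0.998 ± 0.15, adjusted p = 2.52e-05). RPN9 (-0.91) and PRE8 (-0.88), subunits of the proteasome, had the next largest values.

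Ubiquitin and ligase genes went the same way in part, with 13 of 21 lower and 3 higher. In wild type 15 rose and 3 fell, and in zuo1 6 rose. UBI4 (YLL039C, chromosome XII, 64062 to 65207) encodes polyubiquitin. UBI4 had 73.7, 77.5, 75.8 and 102 CPM in wild type with vehicle, 1475, 1370, 1315 and 1252 in wild type with AZC, 152, 165, 173 and 168 in zuo1 with vehicle and 213, 234, 222 and 272 in zuo1 with AZC. Its level in zuo1 was above wild type in every vehicle library and below it in every AZC library (interaction -3.52 ± 0.15, adjusted p = 4.13e-11). ROQ1 (YJL144W, chromosome X, 146359 to 146673) makes a fragment that redirects the ligase Ubr1 to misfolded proteins. In wild type ROQ1 was at 1.38, 1.56, 1.13 and 2.00 CPM before and 119.9, 124, 129 and 96.6 CPM after AZC, and in zuo1 at 2.82, 3.46, 2.49 and 3.26 before and 29.0, 32.7, 26.9 and 30.2 after. It rose strongly in both genotypes (6.29 and 3.31), with the lower level in zuo1 AZC libraries (interaction -2.98 ± 0.20). Autophagy genes had 15 of 21 lower and 0 higher, with medians of 0.87 in wild type and -0.004 in zuo1. ATG8 (YBL078C, chromosome II, 80378 to 80731), the membrane-bound tag of autophagosomes, had 3.30, 2.81, 3.57 and 4.68 CPM in wild-type vehicle and 33.8, 29.3, 23.6 and 20.8 in wild-type AZC libraries. In zuo1 it had 6.68, 4.35, 5.30 and 7.52 in vehicle and 6.89, 7.33, 8.35 and 6.74 under AZC, where the ranges overlapped. Its interaction was -2.61 ± 0.27, and that of ATG1, the kinase that starts autophagy, -1.93 ± 0.14.

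Genes that build ribosomes fell in wild type, and none of the tested members passed in zuo1. All 45 small subunit processome genes and all 53 genes of 60S assembly fell in wild type, 0 of either list passed in zuo1, and all had the higher interaction, with medians of 1.64 and 1.54. The lists' medians with AZC were -1.70 and -1.64 in wild type against -0.02 and -0.07 in zuo1. NOG1 (YPL093W, chromosome XVI, 370978 to 372921) encodes a GTPase of 60S maturation. NOG1 stood at 546, 599, 534 and 531 CPM in the wild-type vehicle libraries and at 76.6, 102, 88.1 and 129.6 under AZC, against 365, 397, 399 and 369 in zuo1 vehicle and 394, 343, 391 and 371 in zuo1 under AZC. The zuo1 values were between the wild-type vehicle and AZC values in every library (interaction 2.45 ± 0.16, adjusted p = 1.86e-09). NSR1 (2.15) and UTP23 (2.45) of the small subunit pathway and REI1 (2.52) and NOG2 (3.12) of the large one had high values, REI1 and NOG2 with the limit that they overlap another annotated gene in libraries without strand. RNA polymerase I and III genes, which make ribosomal RNA and tRNA, had 22 of 26 higher and 0 lower, led by RRN11 (1.86), RPC19 (1.71) and RPA49 (1.60).

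Cytosolic ribosomal protein genes fell in wild type in 128 of 135 members (median -0.69) and in 0 in zuo1 (median -0.14). The interaction was higher for 73 and lower for 0, with a median of 0.57. With the wild type of flowcell 2 it was higher for 48. RPL22B (1.78), RPL4B (1.45) and RPL9B (1.11) led, each with a close paralog among which reads are divided by estimation. Translation factors had 32 of 45 higher and 0 lower (median 0.54). In vehicle 35 of the 45 were already lower in zuo1 than in wild type and 4 higher (median -0.55). Among those with the higher interaction were GCD14 (1.95) and GCD10 (1.70), the tRNA methyltransferase subunits. EFT2 (1.33), an elongation factor gene with the near-identical copy EFT1, was another. Aminoacyl-tRNA synthetase genes had 19 of 22 higher and 1 lower, with GLN4 at 1.16 and DED81 at 1.07. All 22 synthetase genes were already lower in zuo1 than in wild type in vehicle (median -0.77). Of 65 genes listed as mitochondrial ribosomal proteins 19 were lower, 29.2% against the 26.7% of all tested genes, and 0 higher. With the wild type of flowcell 2, 10 were lower.

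Amino acid genes went both ways. Of 46 genes of GCN4 and amino acid synthesis 23 had the higher value and 8 the lower, and 35 were lower in zuo1 in vehicle. ILV5 (YLR355C, chromosome XII, 838066 to 839253), of branched-chain amino acid synthesis, is of the first kind. In wild type ILV5 was at 1728, 1606, 1663 and 1521 CPM before and 370.4, 468, 509 and 613 CPM after AZC, and in zuo1 at 459, 449.7, 559.7 and 474 before and 479.8, 419, 480.2 and 433 after. Wild type under AZC and both zuo1 groups overlapped (interaction 1.63 ± 0.17). ARG3 (YJL088W, chromosome X, 268799 to 269815), ornithine carbamoyltransferase of arginine synthesis, is of the second. ARG3 stood at 2.30, 2.03, 2.22 and 1.90 CPM in the wild-type vehicle libraries and at 9.31, 9.35, 8.93 and 4.61 under AZC, against 3.26, 3.28, 3.38 and 3.33 in zuo1 vehicle and 3.39, 2.71, 2.05 and 3.08 in zuo1 under AZC. Replicate 4 of wild type under AZC lay far below the other 3, still above every zuo1 library (interaction -2.16 ± 0.30, adjusted p = 9.28e-06). ARG4 (-1.12) and ARG1 (-0.84), which act in the same branch and were named after their values were seen, had lower values too. With the wild type of flowcell 2 ARG3 was at -0.67 (adjusted p = 0.0452) and ARG4 at -0.46, and the call of ARG1 was lost (-0.08). The transcript of GCN4, the activator of amino acid genes, fell in wild type by 0.83 and had a higher interaction (0.81 ± 0.12). The Gcn4 protein and its activity were not measured.

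One-carbon and purine genes had 19 of 27 higher and 1 lower, led by HPT1 (2.25) of purine salvage, FCY2 (1.99), a purine permease, and MIS1 (1.39). In vehicle 17 of the 27 were lower in zuo1 than in wild type and 6 higher. Among sulfur genes 8 of 25 were higher, such as MMP1 (1.49) and SAM1 (1.32), and 5 lower, such as MET28 (-1.44). Proline is the amino acid that AZC replaces. Of 10 proline genes 2 were higher and 4 lower. The synthesis gene PRO1 had 0.94 ± 0.09, and the use genes PUT1 and PUT2, which break proline down in mitochondria, had -1.05 ± 0.19 and -0.90 ± 0.13. PUT1 and PUT2 rose in both genotypes, and the call of PUT1 was lost against the wild type of flowcell 2 (-0.39). Their activator PUT3 had -0.57. Ergosterol and anaerobic genes had 13 of 30 higher and 3 lower, with ERG3 (1.20) and ERG11 (1.06) of membrane sterol synthesis. Of these 30 genes, 20 were lower in zuo1 in vehicle and 4 higher.

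The phosphate regulon depended on which wild type was used. It had 14 of 18 genes higher and 2 lower, with a median of 0.98. In vehicle 16 of the 18 were already lower in zuo1 than in wild type (median -1.73). Under AZC 15 were lower (median -0.89) and 2 higher. PHO84 (YML123C, chromosome XIII, 24037 to 25800), the high-affinity phosphate transporter gene, overlaps another annotated gene. PHO84 stood at 1509, 1550, 1386 and 955 CPM in the wild-type vehicle libraries and at 302, 284, 293 and 315 under AZC, against 52.5, 47.8, 56.9 and 40.2 in zuo1 vehicle and 75.4, 57.2, 70.7 and 58.4 in zuo1 under AZC. Wild-type vehicle libraries were the high ones, and all zuo1 libraries were below all wild-type ones (interaction 2.58 ± 0.20, adjusted p = 8.82e-09). With the wild-type response of flowcell 2 in its place the list had a median of 0.16, with 2 of 18 genes higher and 3 lower. PHO84 was then at 1.16 and PHM6 at 0.84, neither of them called, and PHO89 went from 2.24 to -0.03. Iron genes had 7 of 24 higher, 29.2% against the 23.4% of all tested genes, and 2 lower. FET3 (YMR058W, chromosome XIII, 388822 to 390732), the iron uptake oxidase, had 461, 298, 718 and 625 CPM in wild-type vehicle and 129.5, 86.3, 302 and 286 in wild-type AZC libraries. In zuo1 it had 303, 307, 425 and 311 in vehicle and 429.7, 321, 474 and 382 under AZC. Wild type spread more than 2-fold within each group and its groups overlapped, and the interaction was 1.64 ± 0.49, with SIT1 at 1.72 ± 0.49 and FTR1 at 1.56 ± 0.37.

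Oxidative stress genes of Yap1 were often higher in zuo1 before AZC. In vehicle 13 of 23 were higher in zuo1 and 2 lower. AZC lowered 7 in zuo1 and 4 in wild type, and the interaction was lower for 11 and higher for 0. GRX2 (YDR513W, chromosome IV, 1471017 to 1471448), a glutaredoxin gene that overlaps another annotated gene, passed in both genotypes with opposite signs. GRX2 stood at 72.3, 65.5, 59.8 and 81.4 CPM in the wild-type vehicle libraries and at 142, 142, 94.7 and 152 under AZC, against 256, 196, 212 and 248 in zuo1 vehicle and 145, 169, 129 and 171 in zuo1 under AZC. It rose by 0.93 ± 0.14 in wild type and fell in zuo1 (-0.57 ± 0.14), whose AZC libraries overlapped with those of wild type. TRX2 (-0.96), a thioredoxin gene named after its value was seen, was higher in zuo1 in vehicle by 2.29 and fell with AZC in zuo1 (-0.82). TRR1 and TSA1, of the same thioredoxin system and also named after their values were seen, fell in zuo1 (-0.74 and -0.65), and their interactions did not pass (-0.43 and -0.52), except under some alternatives, such as without zuo1 vehicle replicate 2 (-0.555 and -0.615). AHP1 (-1.24), a peroxiredoxin gene, rose in wild type (1.22) and stood at -0.01 in zuo1. SRX1 (YKL086W, chromosome XI, 278281 to 278664), sulfiredoxin, had the lowest value of the list but a low level. SRX1 had 4.09, 1.29, 2.55 and 2.29 CPM in wild type with vehicle, 4.12, 1.45, 3.29 and 4.70 in wild type with AZC, 11.4, 2.39, 12.3 and 10.2 in zuo1 with vehicle and 3.08, 3.36, 3.83 and 2.46 in zuo1 with AZC. Replicate 2 of zuo1 vehicle lay within the range of wild type, and the call (-1.92 ± 0.62, adjusted p = 0.0171) was lost in limma-voom.

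The other genes with opposite responses were TRM5 and YLR297W. TRM5 (YHR070W, chromosome VIII, 234881 to 236380) encodes a tRNA methyltransferase. In wild type TRM5 was at 113, 115, 141 and 136 CPM before and 76.1, 79.8, 104 and 94.1 CPM after AZC, and in zuo1 at 77.7, 73.7, 99.7 and 88.4 before and 129, 114, 125 and 113 after. It fell in wild type (-0.51 ± 0.11) and rose in zuo1 (0.50 ± 0.11), with no overlap between the wild-type groups or between the zuo1 groups (interaction 1.01 ± 0.16, adjusted p = 3.81e-05). YLR297W, of unknown function and named after its value was seen, rose by 0.72 in wild type and fell in zuo1 (-0.74), at a mean under 10 CPM in each group. A larger change in zuo1 than in wild type with the same sign was called for YLR046C (-0.61), GPX2 (-0.60) and CCP1 (-0.45), the last 2 peroxidase genes. Each fell in zuo1 and did not pass in wild type. YLR046C lost its interaction call under 6 of 28 alternatives and GPX2 and CCP1 under 13 each, most of them single libraries left out, from each of the 4 groups. Without zuo1 vehicle replicate 3, CCP1 was at -0.24 (adjusted p = 0.146).

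Transcripts of the regulators gave both directions. HSF1 (-0.66 ± 0.10), MSN2 (-0.37 ± 0.10) and MSN4 (-0.99 ± 0.12) rose in wild type without passing in zuo1, as did GIS1 (-1.67), YAP1 (-0.77) and RIM15 (-0.64). TOD6 (1.63), a repressor of ribosome assembly genes, and FHL1 (0.61), an activator of ribosomal protein genes, fell in wild type. In all 7 of 27 regulators were higher and 12 lower. STB3 (-0.88), a repressor of ribosome genes, the kinase gene YAK1 (-1.30, overlapping another gene), PDR1 (-0.53) and PDR3 (-0.29) were lower, and SKN7 (0.93), PHO4 (0.94), DOT6 (0.38) and SCH9 (0.35) higher. SFP1, RAP1, HAC1, TOR1, TOR2, CRF1, HMO1 and IFH1 did not pass, with values from -0.26 to 0.44. The calls of DOT6, SCH9 and PDR3 were lost under 10, 9 and 4 of 28 alternatives, most of them single libraries left out, and HMO1 and IFH1 passed under 6 and 12. Decapping genes had 6 of 21 lower, 28.6% against the 26.7% of all tested genes, and 2 higher, with a median of -0.08. EDC2 (YER035W, chromosome V, 222639 to 223076), an enhancer of mRNA decapping, had 7.76, 7.42, 7.86 and 9.74 CPM in wild-type vehicle and 147, 148, 164 and 132 in wild-type AZC libraries. In zuo1 it had 13.4, 14.2, 15.2 and 16.2 in vehicle and 40.6, 45.5, 46.1 and 46.2 under AZC. It rose without overlap in both genotypes, to a lower level in zuo1 (interaction -2.58 ± 0.13). EDC1 (-1.24) and DCS1 (-1.19) followed.

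Among 17 genes of ribosome quality control, 6 were higher and 5 lower, or 35.3% and 29.4% against 23.4% and 26.7% of all tested genes. The first include ASC1 (0.76), a ribosomal protein that overlaps the small nucleolar RNA gene SNR24, and the others UFD1 (-1.19) and NPL4 (-1.12), cofactors of the segregase Cdc48. Nonsense decay, Ski and Pan2-Pan3 genes had 6 of 13 higher, among them UPF3 (0.63) and DOM34 (0.68), a ribosome rescue factor, and 3 lower, among them PAN3 (-0.68). The deadenylase complex Ccr4-Not had 1 of 10 higher (NOT3, 0.52) and 2 lower (CDC39, -0.45, and CAF40, -0.43). Decay rates and tail lengths were not measured.

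The remaining lists are given by their counts of higher and lower members. Cell wall integrity genes had 2 higher and 7 lower of 21, with SRL3 (-2.37), PRM5 (-2.35) and the kinase gene SLT2 (-0.91) lowest. Drug resistance genes of Pdr1 and Pdr3 had 1 and 7 of 13, with the efflux pump gene YOR1 at -1.26. Pheromone and mating genes had 0 and 8 of 16, with FUS1 at -0.69, and their median went from -0.29 to -0.07 with the wild type of flowcell 2. Glycolysis and fermentation genes had 10 and 3 of 20, with ADH2 at 1.11, and 2 and 3 with that wild type. Of these 20 genes, 15 were lower in zuo1 in vehicle and 0 higher. TCA cycle and respiratory chain genes had 7 and 8 of 46, with NDE1 at 1.32 and SDH4 at -1.19. Hexose transporters had 2 and 7 of 16, with HXT2 at 2.56 and HXT7 at -1.28. Histones had 5 and 0 of 10, and cyclins 5 and 1 of 12, with CLN2 at 0.77 and CLB6 at 0.81. The a-specific list had 0 of 5 called, the alpha-specific list 1 of 4 and the auxotrophic markers 0 of 2.

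An interaction can come from levels that differ before AZC, after it, or both, and all 3 were seen. Of the 1542 genes with the lower value, 646 were lower in zuo1 only under AZC, 339 were lower at both treatments, and 214 were higher in vehicle and lower under AZC. A further 258 were higher in vehicle and did not pass under AZC. Of the 1355 with the higher value, 450 were higher in zuo1 only under AZC, 202 at both treatments, 295 were lower in vehicle and higher under AZC, and 277 were lower in vehicle and did not pass under AZC. In the small subunit list 18 differed only under AZC, 22 of 45 were lower in zuo1 vehicle (median -0.24), and all 45 were higher under AZC (median 1.37). A difference only under AZC means that the one in vehicle missed the threshold, which does not show equal vehicle levels.

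GDH1 (YOR375C, chromosome XV, 1041678 to 1043042), a glutamate dehydrogenase gene named after its value was seen, differed in vehicle and did not pass under AZC. GDH1 had 676, 637, 673 and 473 CPM in wild type with vehicle, 134, 155, 167 and 193 in wild type with AZC, 198, 191, 237 and 193 in zuo1 with vehicle and 187, 173, 194 and 175 in zuo1 with AZC. Both zuo1 groups overlapped with wild type under AZC and lay below wild type in vehicle (interaction 1.75 ± 0.17, adjusted p = 1.12e-07). The calls that such genes differed only in vehicle rest on a missed threshold under AZC, where GDH1 stood at 0.16, SSB1 at -0.02, EFT2 at 0.20 and STF2 at -0.40 between the genotypes. Over all 5782 tested genes, such genes were 258 with the lower interaction and 277 with the higher. By list they were 11 of 22 aminoacyl-tRNA synthetases, 14 of 45 translation factors and 21 of 135 cytosolic ribosomal proteins. Other lists held them too, among them ribosome quality control (5 of 17), Yap1 genes (5 of 23), nonsense decay, Ski and Pan2-Pan3 (3 of 13) and one-carbon and purine genes (5 of 27).

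**Figure D4:**
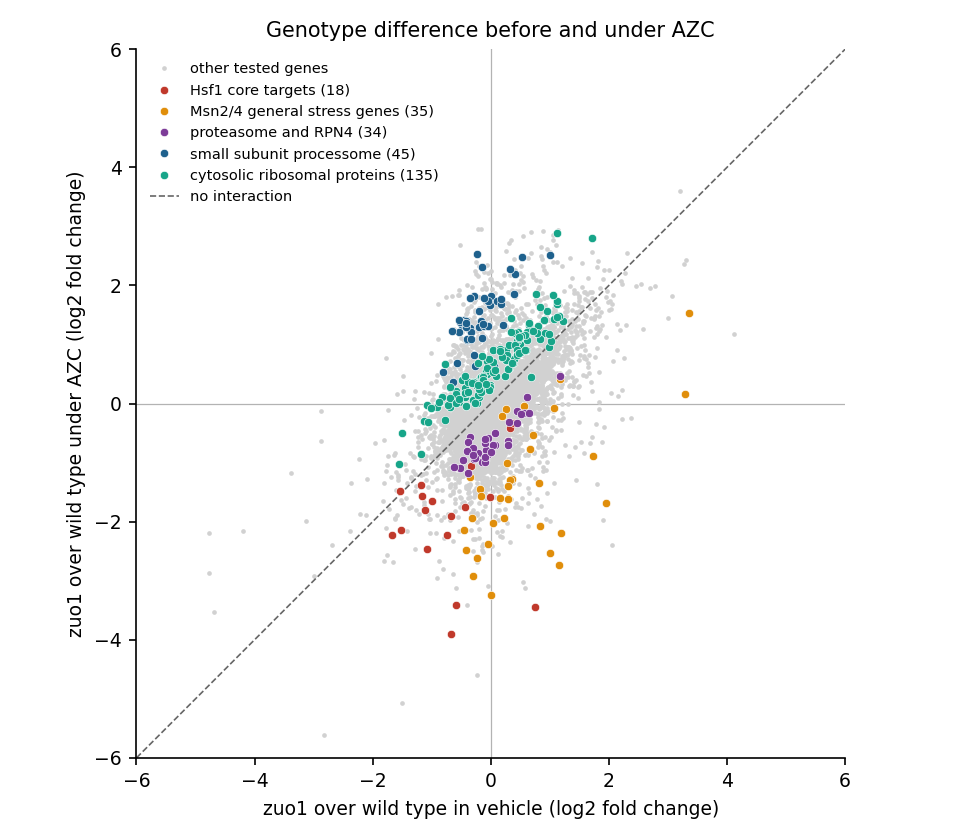
Log2 difference between zuo1 and wild type under AZC (y axis) against that in vehicle (x axis), 1 point per tested gene, n = 4 libraries per group, with 5 gene lists in colour and a dashed line where the interaction is 0. Small subunit processome genes lie above the line with a median of 1.37 under AZC, and Hsf1 core targets lie low on both axes with medians of -0.71 and -1.78; 11 genes lie outside the axes.

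The wild-type response was also taken from flowcell 2, with 4 vehicle and 4 AZC libraries under the same treatments, in a fit with the 8 zuo1 libraries. Of the 2897 genes, 2250 passed the same way, 0 the other way and 647 did not pass. Of the 803 with at least 2-fold, 756 passed the same way. Ribosome assembly, Msn2/4, trehalose and proteasome lists kept their direction, with all 45 small subunit and all 53 large subunit genes higher, 30 of 35 Msn2/4 genes lower and 33 of 34 proteasome genes lower. Of the 170 called genes named by rule or by value, 148 were called in this fit too. The calls lost include those of HSP82 (-0.01), GPX2 (-0.54), PDR3 (-0.15), DOT6 (0.16) and others given above, such as SSA1, PHO84 and PUT1. Of the same 170 genes, 50 had a value over 1.5 times smaller, or of the other sign, and 0 one over 1.5 times larger. Many of these genes were named for large values with the wild type of flowcell 1, and that choice favours smaller values with another wild type. Smaller values were not confined to named genes. Over all tested genes, 475 in place of 803 were called at 2-fold or more. The median of the small subunit list went from 1.64 to 1.28, while that of Msn2/4 genes was -1.75 and -1.76. The cause was not tested. Both fits also hold the same 8 zuo1 libraries, so their shared calls are not independent. In that fit zuo1 and wild type were on different flowcells, which cannot be told apart from genotype in any level but cancels from the response if it acts alike on vehicle and AZC libraries.

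**Figure D5:**
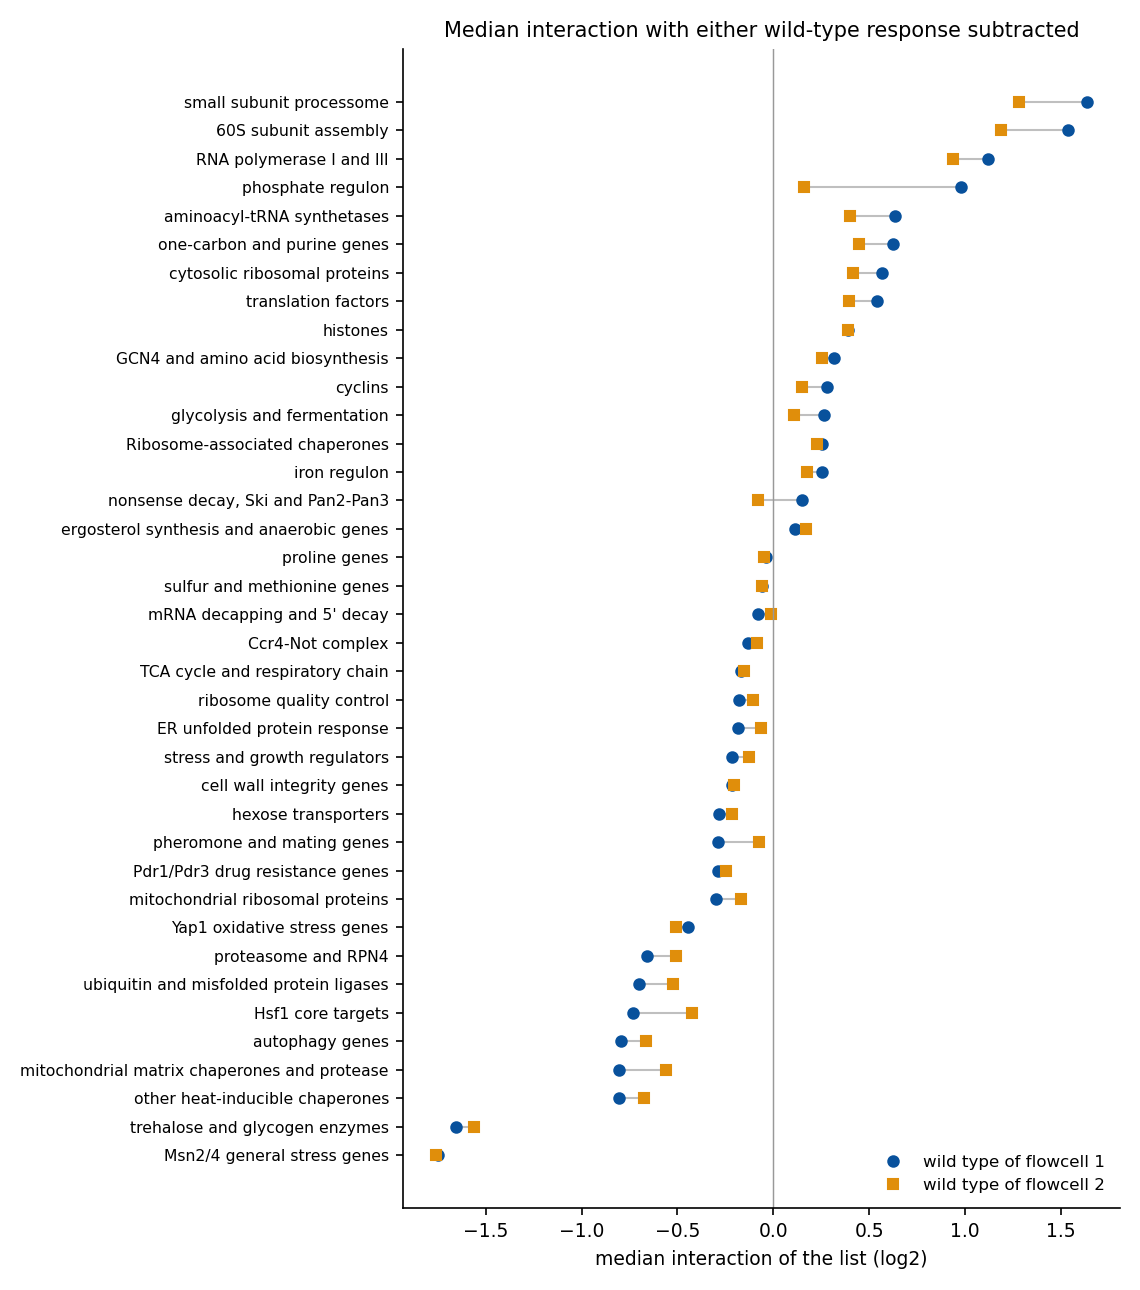
Median interaction of 38 gene lists with the wild-type response of flowcell 1 (circles) or flowcell 2 (squares) subtracted from the zuo1 response. The medians of most lists moved toward 0, the phosphate regulon furthest, from 0.98 to 0.16, while Msn2/4 genes stayed at about the same value.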

How the data were processed

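Poly(A) RNA was sequenced with a library kit that keeps no strand, going by the kit named in the labels. The authors deposited expected counts, which are estimated counts per transcript. Salmon 1.10.2, FastQC 0.12.1 and build R64 are listed per the submitters' processing notes. Non-whole values made up 79.1%, and every value was rounded to a whole number. Gene names came from RefSeq R64 for 6084 of 6085 records. The other record, at most 0.0179% of a library, was left out. Genes with near-identical copies and the 281 records that overlap another gene are uncertain.

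Genes were tested in R 4.3.3 with edgeR 4.0.16 (robust quasi-likelihood fit, TMM scaling, default low-count filter). The 16 flowcell 1 libraries entered with group as the term, and p-values were adjusted by Benjamini-Hochberg over all genes tested. Errors after ± are approximate standard errors, the size of the log2 value divided by the square root of its F statistic. They depend on the size of the change, so those of 2 responses need not combine into that of their interaction. Intervals at 95% are built from them, and n is 4 libraries per group. Reads carried no molecular identifiers, so floors cover counting error only. Tested on simulated data, the interaction recovered 10% of 1.25-fold, 58% of 1.5-fold, 98% of 2-fold and 100% of 4-fold changes, with 7 false calls among 5776 genes. Changes were set only in genes with at least 10 CPM on average. The simulated spread followed the trend over genes, with none particular to a gene and no correlation between same-numbered libraries. These rates therefore need not hold for the real data. Between same-numbered libraries, deviations from the group means correlated at 0.26 to 0.54 for vehicle and AZC in wild type, 0.28 to 0.48 for the genotypes in vehicle, and 0.034 to 0.68 for vehicle and AZC in zuo1. Nothing in the labels pairs them, and the interaction was fitted without a block. Within groups, log2 CPM correlated at 0.979 to 0.995.

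Alternatives were other scalings and filters, DESeq2 1.42.0, limma-voom 3.58.1, all 32 libraries, a replicate block, no overlapping records, each library left out, and the wild type of flowcell 2. The comparison, the 41 lists and the rules were chosen with earlier results of these data known. Of the listed symbols 2 had no record, and 2 entries whose symbol stands for another gene were dropped once the records were matched. Genes named were the 12 lowest and 12 highest interactions among called coding genes with at least 10 CPM on average and no overlap, the 3 largest called members of each list, up to 8 genes each with opposite or larger responses in zuo1, the 10 most alike, the regulators, and ZUO1 with its partners. Others were named after their values were seen, as said beside them, and also BTN2, HSP82, SSA1, SIS1, STI1, RPT1 and HSP12. Some results are not reported here.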

Additional observations from a re-analysis of the deposited data

Results flagged for a closer look

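Among 111 groups of 4 libraries tested, chance alone would put a library far from the other 3 in about 5% of groups, and 8 were seen. They were HSP82 in zuo1 vehicle replicate 2 (103.0 CPM), UBI4 in wild-type vehicle replicate 4 (102 CPM), GSY1 in wild-type AZC replicate 2 (129 CPM), ARG3 in wild-type AZC replicate 4 (4.61 CPM), EDC2 in zuo1 AZC replicate 1 (40.6 CPM), and both GDH1 (237 CPM) and FET3 (425 CPM) in zuo1 vehicle replicate 3. ZUO1 in zuo1 AZC replicate 1 stood at 0.0923 CPM, which is its 3 counts, with 0 in the other 3 libraries.

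The AZC response differed between the genotypes, by the edgeR interaction, at 2897 genes. For 3 of them the responses passed in both genotypes with opposite signs: TRM5 (interaction 1.01), GRX2 (-1.50) and YLR297W (-1.46).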

How the results depend on the processing

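Over 28 alternatives the counts of calls stayed within 1.5 times the reported ones, with 3 exceptions. Genes at 2-fold or more were 475 in place of 803 with the wild-type response from flowcell 2. AZC in zuo1 called 280 genes with the replicate number as a block and 308 with a block within genotype, in place of 160. The interaction called 3282 and 3363 genes in these blocked fits, in place of 2897. Same-numbered libraries of different groups had correlated deviations in 19 of 24 pairs (over 0.1; -0.13 to 0.68), and 11 of 16 libraries correlated best with their own number, so a shared origin of equal numbers is a hint from the data only.

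With 1 library left out, the interaction called 2656 to 2906 genes, 745 to 838 of them at 2-fold or more, and AZC in zuo1 called 107 to 215. The share of calls with the lower value was 48.0 to 59.8% over all settings, against 53.2%, and the median interaction -0.12 to 0.003. Of 170 genes chosen by rule or by value and called for the interaction, 144 kept the call under every alternative that tested them.

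Signs turned for values near 0 and for genes or lists tied to the wild type used. With flowcell 2 these were INO2 (0.35), PHO89 (-0.031) and the median of nonsense decay, Ski and Pan2-Pan3 genes (-0.081). RAP1 (0.02) was at -0.047 with library totals, -0.032 with upper quartile factors and -0.015 with the 10 CPM filter, and SSA2 was at -0.008 with library totals. With single libraries left out, RAP1 was -0.006 to 0.112, SSA2 -0.016 to 0.213, and list medians were -0.090 to 0.106 for proline genes, -0.076 to 0.065 for sulfur genes, -0.103 to 0.018 for decapping genes and -0.125 to 0.009 for a-specific genes. The causes were not tested. SRX1 and YLR297W stood at low levels, and SRX1 spread widely between the zuo1 vehicle libraries.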
